A study of Danio rerio with 3 samples.

Results

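A set of 10 genes that go together with *pnp6* in quiescent radial glia was followed through the cells of the adult zebrafish telencephalon. They were the galectins *lgals1l1* and *lgals2a*, the genes of extracellular or membrane proteins *crtac1a*, *mfge8a* and *cspg5b*, the enzyme genes *pnp6*, *cahz* and *sult2st3*, the vesicle protein gene *vamp5*, and *si:dkey-31g6.6*, which has no descriptive name. All 10 symbols were found among the 29077 gene identifiers of the tables, of which 24433 had at least 1 UMI (unique molecular identifier, a count of 1 captured transcript). The members were chosen by values of these data, namely how their UMIs went with those of *pnp6* in quiescent radial glia, so how they go together within radial glia is given as a description, without a test.

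The cells came from Tg(sox2:gfp) fish, in which GFP marks neural stem cells and progenitors that use the *sox2* gene. The fish were 12 weeks old, and all of them had been bathed in LY-411575 (LY), an inhibitor of gamma-secretase, the protease that releases the active part of the Notch receptor. Sources differ on how long: the sample descriptions state 48 hours and the published methods fewer. There were 3 libraries of telencephalic cells, each from pooled fish of a separate sorting day, with sorted GFP-positive cells mixed with GFP-negative ones. Every cell was therefore LY-treated, and no untreated cells were compared here. The 3 replicates held 5349 to 8143 barcodes with medians of 1541 to 1676 UMIs, and 17842 of the 19697 barcodes were kept after filtering. Between 43 and 61 barcodes were shared by any 2 libraries, of which 3 to 11 were in radial glia of both.

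Radial glia are the neural stem cells of the adult zebrafish forebrain. They line the ventricle with their cell bodies, and most of them rest in quiescence, from which they are recruited to divide and make neurons. Active Notch signaling holds them in quiescence, and its loss drives them toward the cell cycle. Galectins are proteins that bind galactose-containing sugars on cell surfaces and in the matrix, and purine nucleoside phosphorylases, the family *pnp6* is named for, split nucleosides so that their bases can be used again.

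Radial glia were taken as cells with at least 1 UMI each of *slc1a2b*, a glutamate transporter, and *fabp7a*, a fatty acid binding protein. The published study reports that *slc1a2b* fell under LY in several clusters and that *fabp7a* was kept in a quiescent cluster with high *pnp6*. Whether the gate thus took in cells with *pnp6* more readily than others was not tested. The gate held 5413 cells, 30.3% of all cells used. Neurons (6905 cells), oligodendrocyte precursor cells (OPCs, 258 cells), oligodendrocytes (389 cells), microglia and macrophages (162 cells), and cycling cells outside the radial glia gate (209 cells) each needed UMIs of at least 2 of their own marker genes. A further 2298 cells met several of these gates and 2208 met none, and neither set was compared. Shares below are of cells with at least 1 UMI of a gene (positive cells) after each cell had been thinned at random to 1000 UMIs, so that depth did not differ between cells. Shares are means ± SD of the 3 replicates (n = 3) unless they are given as pooled. This left 5028 radial glia and 5021 neurons, with medians of 2183 and 1688 UMIs before thinning, and 115 to 266 cells of each other type.

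The radial glia gate was checked against markers it did not use. *glula*, the glutamine synthetase of astroglia, was detected in 84.8% ± 2.11 of the radial glia, *cx43*, a gap junction gene, in 52.8% ± 3.19, *s100b* in 35.7% ± 1.77, and *sox2* in 28.8% ± 3.47. By contrast, *gfap* was detected in 5.78% ± 0.612 and *her4.1*, a Notch effector, in 5.49% ± 0.741. Of the cells in the gate, 3592 (66.4%) also met the gate of a non-cycling type. Whether these cells were radial glia or cells of the other type was not tested. The OPC receptor gene *aplnra*, which belongs to the OPC gate, was detected in 18.1% ± 5.90 of the radial glia. Its share was 2.07% ± 1.21 in the 1694 thinned radial glia that met no gate of a non-cycling type. This set, in which cycling radial glia stay, is called unmixed radial glia here, and its values are given beside those of the whole gate. The name refers only to the gates that were met. A low share of *aplnra* in unmixed radial glia is therefore close to what defined the set.

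The 10 genes were minority transcripts even in radial glia. *pnp6* was detected in 7.50%, 8.5%, and 7.05% of the radial glia in replicates 1, 2, and 3, against 1.75%, 1.40%, and 1.27% of the neurons. Every radial glia value lay above every neuron value. In unmixed radial glia the share of *pnp6* was 9.98% ± 0.503, and in the whole gate it was 7.69% ± 0.745. No *pnp6*-positive cell was found among the 115 microglia and macrophages, which allows a share of up to 2.61%, and 1 was found among the 189 cycling cells outside the gate.

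Of the galectins, *lgals1l1* was the gene that differed most between libraries. It was detected in 0.780%, 2.74%, and 3.43% of the radial glia, against 0.213%, 0.191%, and 0.814% of the neurons. Replicate 1 was low in radial glia, and its value lay below that of the neurons of replicate 3. *lgals2a* was found in 10.3%, 14.4%, and 15.6% of the radial glia and in 4.22%, 4.34%, and 9.40% of the neurons. Its mean in radial glia, 13.4% ± 2.77, was below that in microglia and macrophages (36.1% ± 9.07), OPCs (27.7% ± 16.1), and oligodendrocytes (18.2% ± 14.5). The oligodendrocyte replicates gave 8.51%, 11.2%, and 34.9%, so that only replicate 3 lay above the radial glia of the same replicate. The OPC replicates gave 10.5%, 30%, and 42.5%, with replicate 1 near the radial glia.

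The genes of secreted and surface proteins included both the most widely and some of the most evenly detected members. *mfge8a*, whose mammalian counterpart is a secreted glycoprotein that bridges dying cells and phagocytes, was detected in 30.8%, 39.2%, and 34.5% of the radial glia and in 3.15%, 4.46%, and 2.89% of the neurons. *crtac1a*, of a family of secreted matrix proteins, was detected in 17.6%, 23.4%, and 20.8% of the radial glia and in 1.28%, 2.1%, and 1.27% of the neurons. In both genes the replicates of the 2 cell types were far apart. Among unmixed radial glia the shares were 52.0% ± 4.58 for *mfge8a* and 32.6% ± 1.67 for *crtac1a*. Radial glia that also met a single other gate differed by that gate. *mfge8a* was detected in 55.2% ± 9.61 of the 191 thinned cells that met the oligodendrocyte gate. The share was 29.7% ± 3.25 of the 1632 that met the neuron gate and 19.5% ± 3.09 of the 312 that met the OPC gate. *cspg5b*, a chondroitin sulfate proteoglycan gene, was detected in 10.1%, 10.6%, and 9.35% of the radial glia, against 1.11%, 1.40%, and 1.45% of the neurons. Its share in OPCs, 10.5% ± 6.0, and in cycling cells outside the gate, 8.98% ± 2.41, was near that of radial glia.

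The other enzymes and the vesicle gene were sparser. *cahz*, a carbonic anhydrase, which interconverts carbon dioxide and bicarbonate, was detected in 6.43%, 11.2%, and 6.92% of the radial glia, against 1.49%, 4.91%, and 2.35% of the neurons. Replicate 2 was highest in both cell types. Oligodendrocytes had *cahz* in 14.8% ± 7.52 of their cells. *sult2st3*, a cytosolic sulfotransferase that adds sulfate to small molecules, was detected in 2.97% ± 0.721 of the radial glia and in 0.257% ± 0.223 of the neurons, and in none of the 156 OPCs, 266 oligodendrocytes, and 115 microglia and macrophages, which allows shares of up to 1.92%, 1.13%, and 2.61%. *vamp5*, a vesicle-associated membrane protein of the SNARE fusion machinery, was detected in 3.45% ± 1.13 of the radial glia, 0.429% ± 0.112 of the neurons, and 5.23% ± 1.57 of the oligodendrocytes. *si:dkey-31g6.6* was detected in 3.85% ± 1.03 of the radial glia and in 0.160% ± 0.0282 of the neurons.

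**Figure D1:**
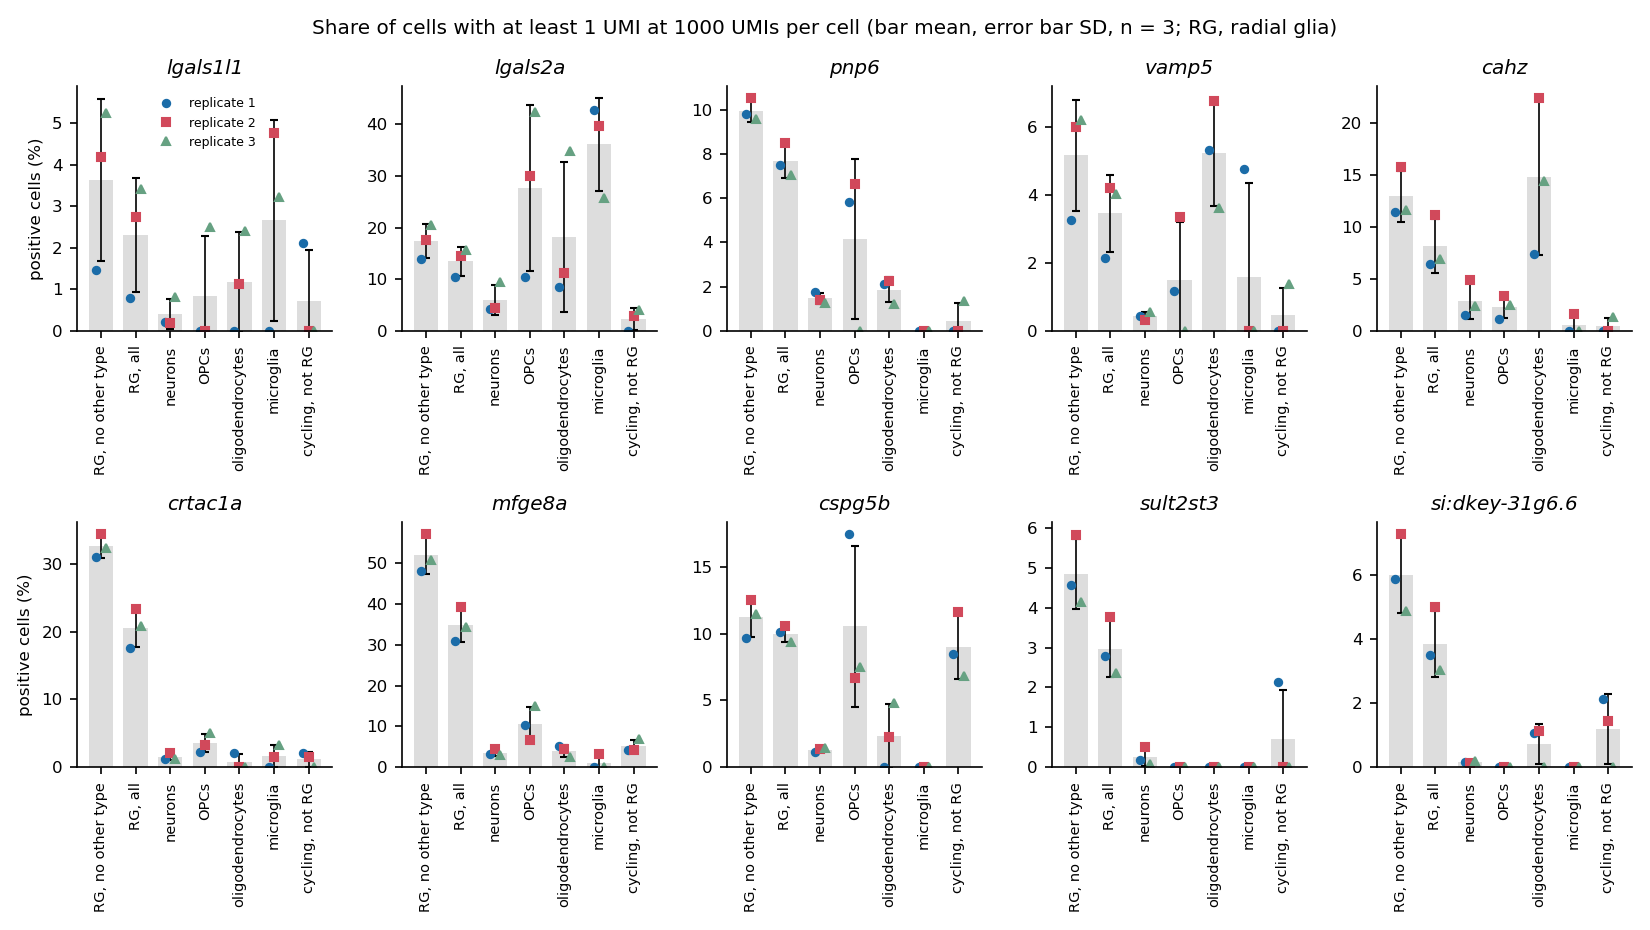
Share of positive cells (y axis, percent) for each of the 10 genes at 1000 UMIs per cell, in unmixed radial glia (RG, no other type), the whole radial glia gate, and the 5 other cell types. Bars are means, error bars are SDs, and symbols are the 3 replicates. Most genes are highest in the radial glia columns, with *pnp6* at 7.69% in the whole gate, whereas *lgals2a* is highest in microglia at 36.1% and the means of *cahz* and *vamp5* are higher in oligodendrocytes than in the whole gate.

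Free RNA from broken cells can give low shares in droplets of every type. Its part was not estimated here, so a low share cannot be told apart from it. In *lgals1l1*, the share in microglia and macrophages was 2.66% ± 2.43, which overlapped the 2.32% ± 1.37 of radial glia. Many positive cells held a single UMI. Without thinning, the share of positive radial glia with 1 UMI was between 32.3% (*mfge8a*) and 74.0% (*vamp5*), with *crtac1a* at 39.5% and *si:dkey-31g6.6* at 48.4%. For *pnp6* it was 64.9% of 818 positive cells, and the largest count was 15 UMIs. For *lgals2a* the largest count in a radial glial cell was 82 UMIs, for *mfge8a* 66, for *lgals1l1* 39, and for *si:dkey-31g6.6* 34.

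To compare cell types over replicates, UMIs were summed per replicate and type, and all genes were tested in 1 fit with edgeR's quasi-likelihood test and Benjamini-Hochberg adjustment, with an adjusted p under 0.05 counted as a call. In bulk sums of this kind, fewer positive cells and less RNA per cell cannot be told apart. Of the 10 members, 8 passed the filter on low sums, whereas *lgals1l1* and *sult2st3* did not. The filter uses all types. *si:dkey-31g6.6* passed it through the radial glia sums alone, and *pnp6* and *crtac1a* would not have passed without those sums. The counts, folds and p-values below therefore describe the members and support nothing further.

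Against neurons, all 8 tested members were higher in radial glia. Over all 4741 genes tested, 30.8% were called higher and 62% in either direction. The median log2 fold change of the members was 3.17, and that of all tested genes was -0.03. *si:dkey-31g6.6* had 74.6, 86.9, and 73.8 counts per 1000000 UMIs (CPM) in the radial glia sums of the 3 replicates and 1.18, 2.52, and 3.09 in those of neurons, and its log2 fold change of 5.15 ± 0.23 (SE) was the largest of the members (adjusted p = 5.96e-18, edgeR's quasi-likelihood test). *cahz* had the smallest, 1.81 ± 0.19 (adjusted p = 9.29e-10, edgeR's quasi-likelihood test). For *pnp6* it was 2.77 ± 0.15 (adjusted p = 4.33e-16, edgeR's quasi-likelihood test), with 93.8, 130, and 94.4 CPM in radial glia and 16.9, 15.12, and 12.0 in neurons. With the filter removed, *lgals1l1* and *sult2st3* were tested as well and were also called higher, with log2 fold changes of 3.41 and 3.54.

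Against OPCs, 4 of the 8 tested members were higher in radial glia, 1 was lower, and 3 were not called, where 23.7% of all tested genes were called, 11.1% higher and 12.6% lower. The members that rose were *mfge8a* (log2 fold change 3.09 ± 0.23), *crtac1a* (3.43 ± 0.31), *si:dkey-31g6.6* (4.46 ± 0.80), and *cahz* (1.56 ± 0.52). *si:dkey-31g6.6* had 1 UMI in OPCs, and the ratio of its pooled levels was 25.5 (exact 95% counting interval 4.56 to 1007). The call of *cahz* rested on few UMIs and was lost without replicate 1 (1.2) or replicate 3 (1.31) and without the replicate block (1.58). *lgals2a* was lower in radial glia by a log2 fold change of -1.64 ± 0.33 (adjusted p = 0.000360, edgeR's quasi-likelihood test). It had 210, 391, and 403 CPM in radial glia and 287, 1292, and 1846 in OPCs. Replicate 1 of the OPCs lay within the range of the radial glia, but OPCs were higher within every replicate.

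*pnp6* itself was not called against OPCs (log2 fold change 0.68 ± 0.33, adjusted p = 0.146, edgeR's quasi-likelihood test). It had 67.2, 76.0, and 31.1 CPM in OPCs, all below its values in radial glia. *cspg5b* had a log2 fold change of 0.03 ± 0.28 and *vamp5* of 0.99 ± 0.62. Among the radial glia that also met the OPC gate and no other, 312 cells after thinning, *pnp6* was detected in 8.76% ± 4.02 and *cspg5b* in 15.2% ± 0.683, whereas *crtac1a* was detected in 6.71% ± 1.97. In the fit with unmixed radial glia alone, 7 of the 9 tested members were higher than in OPCs, *pnp6* among them (1.45, adjusted p = 0.000306, edgeR's quasi-likelihood test), while *lgals2a* was again lower and *cspg5b* was not called. Over all genes, too, more were called in that fit than with the whole gate. The higher number of members called is therefore not read as a result about the members. *pnp6* was also called without the filter on low sums (1.06), where the median of the same genes moved up by 0.38, and with a gate of at least 2 UMIs of each glial gene (1.26).

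Oligodendrocytes divided the members. In radial glia, 5 members were higher and 3 were lower, where 32.9% of all tested genes were called, 15.9% higher and 17.1% lower. *crtac1a* (log2 fold change 4.63 ± 0.28), *mfge8a* (4.12 ± 0.22), *si:dkey-31g6.6* (3.2 ± 0.46), *cspg5b* (2.68 ± 0.34), and *pnp6* (2.49 ± 0.35) were higher. *lgals2a* was lower (-1.95 ± 0.31), with 210, 391, and 403 CPM in radial glia and 381, 658, and 3425 in oligodendrocytes. *cahz* was lower (-1.23 ± 0.23), with 103, 166, and 113 CPM in radial glia and 152, 524, and 197 in oligodendrocytes. For both genes replicate 1 of the oligodendrocytes lay within the range of the radial glia, but oligodendrocytes were higher within every replicate. For *lgals2a* the difference was by far the largest in replicate 3, and the SE of 0.31 does not measure that unevenness. *vamp5* was lower (-0.86 ± 0.31), but its call was lost without replicate 1 (-0.64) or replicate 2 (-0.74), without the block (-0.86), and with DESeq2 (-0.92). In unmixed radial glia neither *cahz* (-0.24) nor *vamp5* (0.15) was called against oligodendrocytes.

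Red blood cells were looked at beside *cahz*, because the gene is also expressed by zebrafish erythrocytes. In 84 cells with UMIs of both *alas2* and *slc4a1a*, an enzyme and a membrane protein of red blood cells, *cahz* was detected in 78 (92.9%) at 3790 CPM, and 3 of these cells were inside the radial glia gate. The 6 red blood cell genes summed to 0.0409, 1.79, and 0.473 UMIs per 1000 in the radial glia of the 3 replicates and to 0, 12.7, and 7.75 in the oligodendrocytes. Replicate 2 was highest in both, as it was for *cahz*, and the part of red blood cell RNA in the difference between the 2 types was not tested. Within radial glia, *cahz* was detected in 9.81% ± 5.09 of the cells with a haemoglobin UMI and in 8.45% ± 2.91 of those without, and the replicates overlapped.

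Microglia and macrophages had fewer UMIs, 244780 in all. Against them 6 members were higher in radial glia, 1 was lower, and *vamp5* was not called, where 41% of all tested genes were called, 22.8% higher and 18.2% lower. The lower one was again *lgals2a* (log2 fold change -1.98 ± 0.35, adjusted p = 2.14e-05, edgeR's quasi-likelihood test), with 210, 391, and 403 CPM in radial glia and 696, 1209, and 998 in microglia and macrophages. The 2 sets of values did not overlap. *cspg5b* had 0 UMIs in microglia and macrophages, so that radial glia were at least 9.69-fold higher, taken against 3 UMIs over the group. For *pnp6* the ratio of the pooled levels was 8.60 (exact 95% counting interval 2.94 to 41.8) against 3 UMIs, and for *crtac1a* 46.4 (12.8 to 383) against 2 UMIs. The call of *si:dkey-31g6.6* was lost without replicate 2 (1.65) and that of *cahz* (2.95) without the block. The median log2 fold change of the members was 3.08, or 3.06 with *cspg5b* at its bound, and that of all tested genes was 0.35.

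Cycling cells outside the radial glia gate, which lacked a UMI of at least 1 glial gate gene, were lower in all 8 tested members, where 24.3% of the tested genes were higher in radial glia and 45.7% were called in either direction. *mfge8a* was higher in radial glia by a log2 fold change of 3.93 ± 0.23 and *crtac1a* by 3.77 ± 0.26. *pnp6* had 1 UMI in 533753 in these cycling cells, a ratio of 56.3 (counting interval 10.1 to 2225). *cspg5b* differed least, by 0.72 ± 0.25 (adjusted p = 0.0209, edgeR's quasi-likelihood test), and this call was lost without replicate 1 (0.66) or replicate 3 (0.64) and without the replicate block (0.73).

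**Figure D2:**
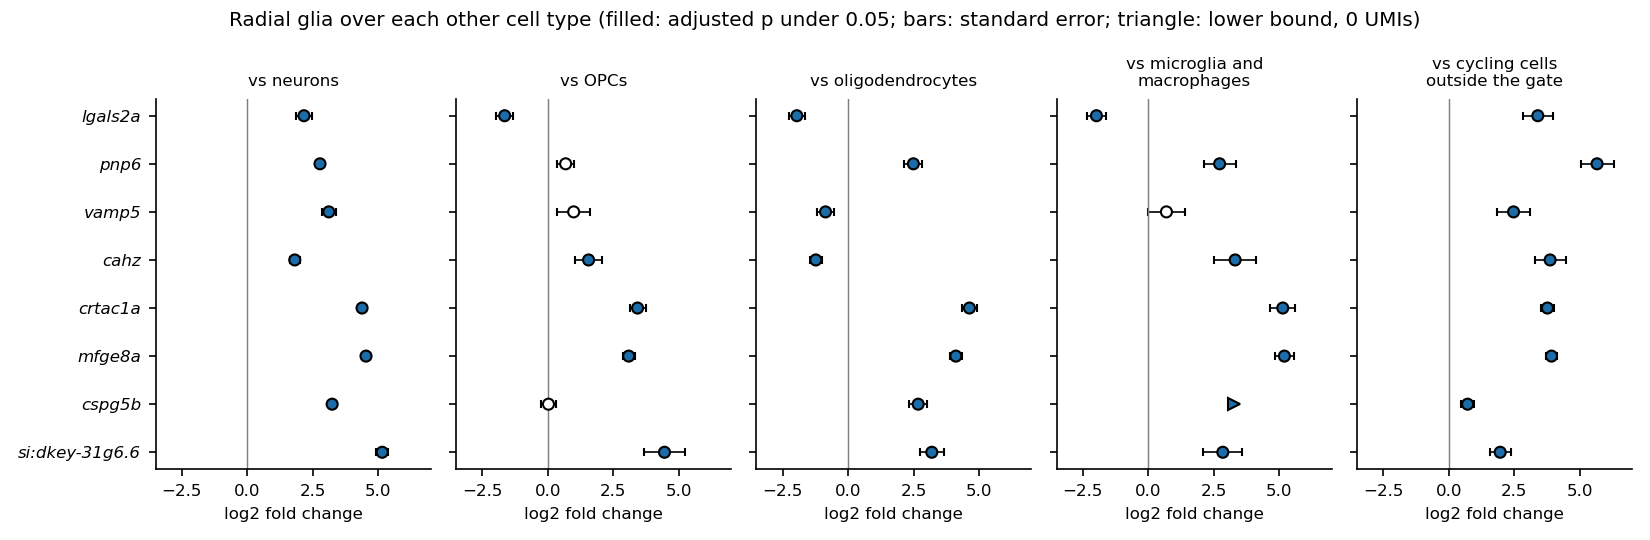
Log2 fold change (x axis) of the 8 tested members in radial glia over each other cell type, from edgeR on sums of 3 replicates. Circles are filled where the adjusted p was under 0.05, bars are standard errors, and the triangle is the lower bound for *cspg5b*, which had 0 UMIs in microglia and macrophages. All members lie right of 0 against neurons and cycling cells, and *lgals2a* lies left of 0 against OPCs (-1.64), oligodendrocytes (-1.95), and microglia (-1.98).

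Within radial glia, cells that met the cycling gate were then compared with the other radial glia. The genes had been chosen as genes of quiescent cells, so a fall in cycling cells is close to what chose them. All 10 members passed the filter here, and all 10 were lower in cycling radial glia, where 34.3% of the 11408 genes tested were called, 17.9% higher and 16.4% lower. The median log2 fold change was -1.35 for the members and -0.01 for all genes. The 762 cycling radial glia were deeper, with a median of 3495.5 UMIs, against 1915 in the other 4651.

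*pnp6* had 39.4, 53.2, and 36.1 CPM in cycling radial glia, against 101, 156, and 121 in the other radial glia. The groups did not overlap, and *pnp6* fell by 1.53 ± 0.14 on the log2 scale (adjusted p = 4.67e-09, edgeR's quasi-likelihood test). *lgals1l1* had the largest fall of the members (-2.08 ± 0.22, adjusted p = 4.64e-08, edgeR's quasi-likelihood test), with 0, 12.8, and 21.3 CPM, against 12.4, 60, and 85.6. The groups overlapped, since 2 of the cycling values lay above the lowest value of the other radial glia, but *lgals1l1* was lower within every replicate. *lgals2a* fell by 1.09 ± 0.13 on the same scale. It had 73.0, 258, and 202 CPM in cycling radial glia, against 227, 435, and 495 in the others, and was lower within every replicate.

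*cahz* fell by 1.63 ± 0.14, with 25.6, 71.5, and 43.2 CPM in cycling radial glia and 112, 198, and 145 in the others. *crtac1a* fell by 1.36 ± 0.11, with 124, 180, and 191, against 372, 508, and 453. For both genes the groups were apart. *mfge8a* fell by 1.33 ± 0.10, *cspg5b* by 1.2 ± 0.14, *sult2st3* by 1.12 ± 0.21, and *si:dkey-31g6.6* by 1.54 ± 0.20. *vamp5* had the smallest fall, 1.0 ± 0.21 (adjusted p = 0.000583, edgeR's quasi-likelihood test). In replicate 1 it had 29.6 CPM in cycling radial glia and 27.4 in the others, and in replicates 2 and 3 it was lower in cycling radial glia. Without the replicate block in the fit, the calls of *lgals1l1* (-1.84), *lgals2a* (-1.02), and *vamp5* (-0.88) were lost.

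**Figure D3:**
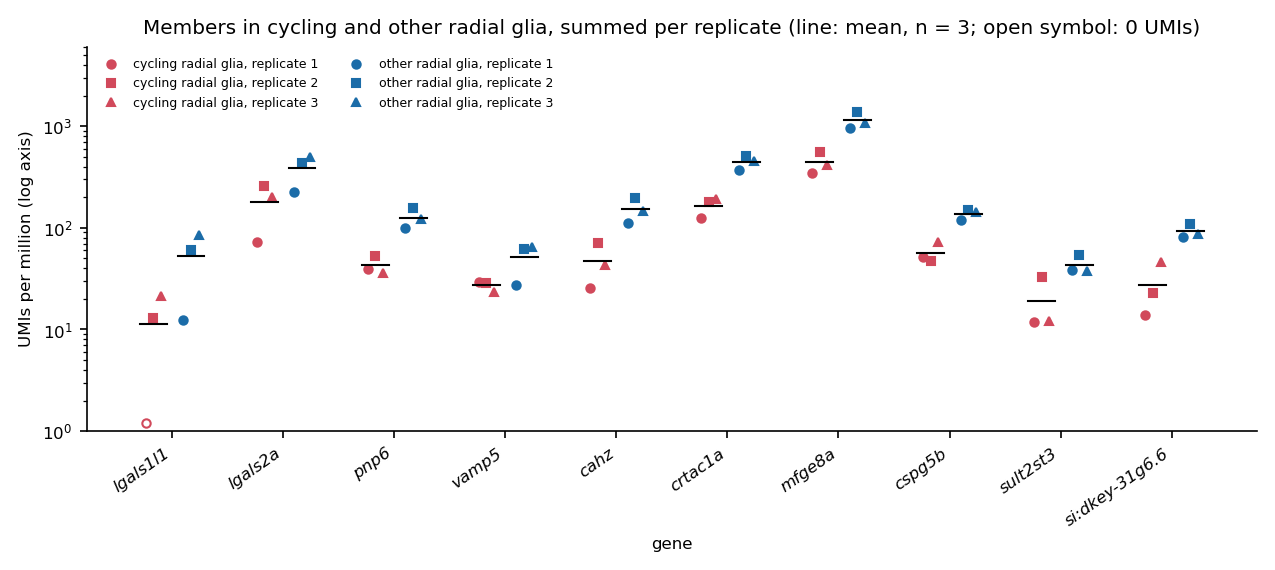
CPM (y axis, log scale) of each member in cycling radial glia (left in each pair) and other radial glia (right), for the 3 replicates, with the mean as a line. The open symbol at the lower edge is *lgals1l1* in replicate 1 of the cycling radial glia, which had 0 UMIs. The mean is lower in cycling radial glia for every gene, and the symbols of *vamp5* overlap, with 29.6 against 27.4 in replicate 1.

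Other genes of the same comparison show what else moved. The list of activation genes, which holds proneural, cyclin, and replication licensing genes, was higher in cycling radial glia for 12 of 12 tested genes, among them *mcm2* (log2 fold change 1.39 ± 0.12) and, much less, *ascl1a* (0.33 ± 0.10) and *ccnd1* (0.37 ± 0.10). Cycling cells were gated on genes of replication and division, so a rise of cyclin and licensing genes is close to what the gate chose. Of 12 genes of neuronal commitment, 9 were higher. Of the other genes linked to deep quiescence or astroglia, 9 of 9 tested were lower, such as *glula* (-1.11 ± 0.09) and *nr2f1b* (-0.95 ± 0.31), a nuclear receptor gene. Of 11 Notch effectors, *her4.1*, *her6*, *hey1*, and *hey2* were lower and *her15.1*, *her8.2*, *her4.2*, *her4.3*, and *her4.4* were higher. Marker genes of other types moved with the members. Lower in cycling radial glia were 6 of 7 neuron gate genes, 5 of 6 tested OPC gate genes, 2 of 6 oligodendrocyte gate genes, and 4 of 4 tested red blood cell genes, and 7 of 10 check genes of radial glia were lower as well. Their part in the fall of the members was not tested. With unmixed radial glia alone all 10 members were still lower, *pnp6* by 2.15 ± 0.21 and *cspg5b* by 1.17 ± 0.21.

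Relatives of the members did not share one direction in cycling radial glia. *pnp5a*, another purine nucleoside phosphorylase, was higher in cycling radial glia (log2 fold change 2.43 ± 0.30), while *pnp6* was lower. *mfge8b*, the paralog of *mfge8a*, was also higher (0.69 ± 0.19), whereas *cspg5a*, the paralog of *cspg5b*, was lower (-0.56 ± 0.11). Of the other genes listed with the galectins, which include galectin-related and galectin-binding protein genes, 1 of 4 tested was lower and none was higher. *vamp8*, another SNARE gene, was lower (-0.90 ± 0.14). Of the 6 other carbonic anhydrases tested, 5 were lower and *ca9* was higher (1.02 ± 0.32), and all 4 other sulfotransferases tested were lower.

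Some relatives also differed from the members in where they were found, and others did not. *cspg5a* was detected in 39.7% of the radial glia and 49.2% of the neurons (pooled over replicates), whereas *cspg5b* was detected in 10.0% and 1.27%. *vamp8* was detected in 6.94% of the radial glia and 0.578% of the neurons, as *vamp5* was in 3.30% and 0.418%. Among microglia and macrophages, the galectins *lgals9l1* (47.8%, pooled) and *lgals9l3* (22.6%) and the galectin-binding protein gene *lgals3bpb* (50.4%) were detected widely, against 0.239%, 0.179%, and 0.796% of the radial glia. The member *lgals2a* was likewise detected more widely there (36.5%, against 13.1% of the radial glia, pooled). In the RefSeq annotation of the GRCz12tu assembly, *lgals1l1* and *lgals2a* are neighbours on the chromosome, and *vamp5* lies next to *vamp8*. How reads of such neighbours or of similar paralogs were assigned was not tested, and their values are uncertain to that extent.

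How often the members were found in the same cell was described by the number of cells positive for both genes over the number that the product of their shares gives, summed over replicates. In radial glia this ratio was above 1 for all 45 pairs, in 3 of 3 replicates. Over the pairs, 5397 co-positive cells were counted where 2324 were expected, a ratio of 2.32, and the replicates gave 2.44, 2.23, and 2.33. The median ratio of the pairs was 2.71. As a background, each member was paired with 2243 genes detected in at least 5% of the radial glia of every replicate, and the median ratio of a member was 0.927 to 0.988, with its 95th percentile at 1.5 to 2.1. The background holds no gene as rare as *lgals1l1*, *sult2st3*, *vamp5*, and *si:dkey-31g6.6*, whose mean shares were 2.32% to 3.85%. It is therefore not matched in abundance to pairs of these genes. The members were chosen for going with *pnp6*, so that a high ratio is what the choice gives.

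The pairs differed among themselves. The lowest ratio, 1.61, was that of *lgals2a* with *mfge8a*, and the highest, 6.76, was that of *lgals1l1* with *si:dkey-31g6.6*, which rested on 28 cells where 4.14 were expected. *lgals1l1* and *vamp5* were found together in 27 cells where 4.11 were expected (ratio 6.58). The neighbouring galectins *lgals1l1* and *lgals2a* shared 73 cells where 15.5 were expected (ratio 4.70). Most *lgals1l1*-positive cells, 67.6% of 108, also had *lgals2a*, whereas 11.1% of the 659 *lgals2a*-positive cells had *lgals1l1*.

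For *pnp6* the partners ranged from *mfge8a* (ratio 1.93) to *lgals1l1* (4.96). *mfge8a* was the commonest partner all the same, detected in 66.5% of the 385 *pnp6*-positive radial glia, followed by *crtac1a* in 45.5%. *cahz* was found in 104 of them where 31.2 were expected (ratio 3.34, and 3.63, 3.03, and 3.51 in the 3 replicates). *sult2st3* (3.74) and *si:dkey-31g6.6* (3.57) were rarer partners with similar ratios. Ratios of rare genes can rise higher than those of common ones, since the ratio of a pair cannot exceed the inverse of the share of its commoner gene.

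**Figure D4:**
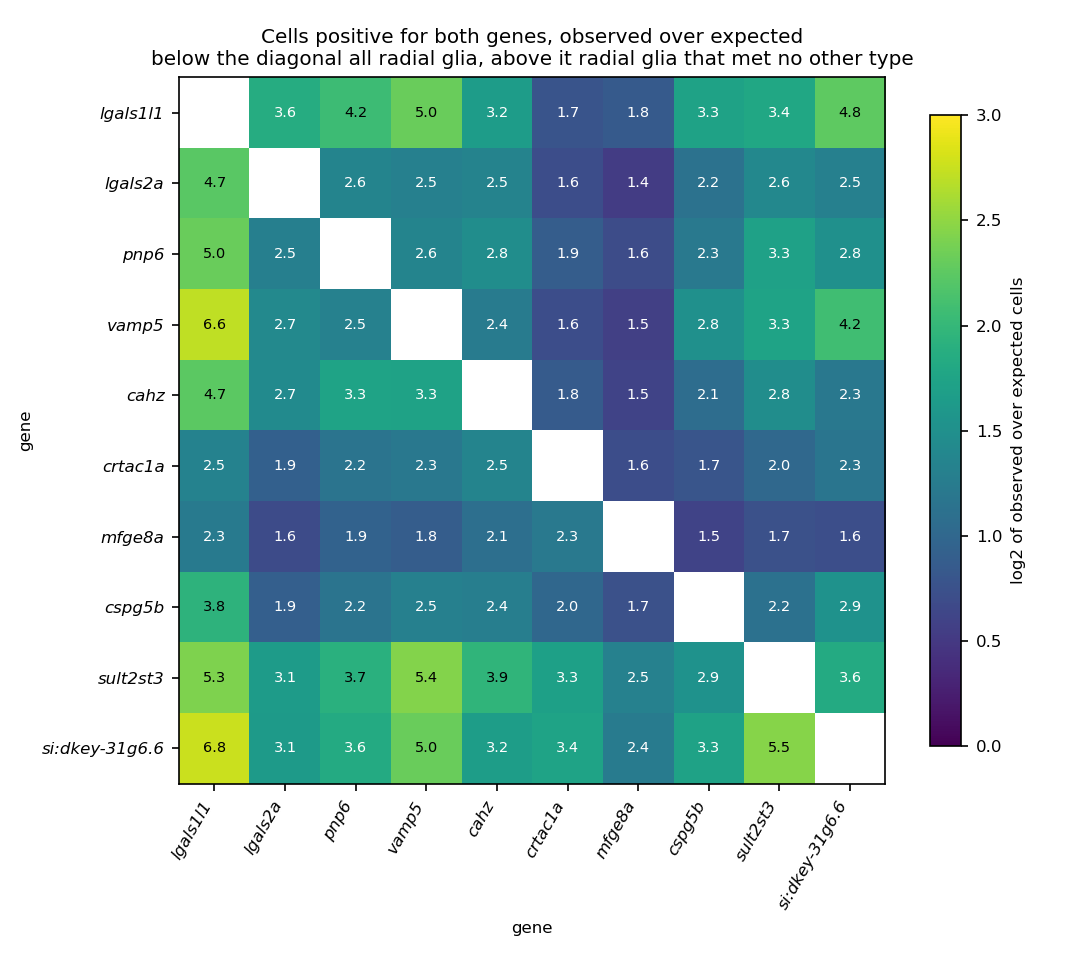
Cells positive for both genes over the expected number for the 45 pairs of members, with the whole radial glia gate below the diagonal and unmixed radial glia above it. Colour is the log2 of the ratio and the number printed is the ratio itself. All pairs are above 1, and the lowest ratio in the whole gate is 1.61 for *lgals2a* with *mfge8a*, in the row of *mfge8a* and the column of *lgals2a*.

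In unmixed radial glia the ratios were lower but kept their direction. The median was 2.38 and the range 1.44 to 4.98, with all 45 pairs above 1 and 44 of them above 1 in 3 of 3 replicates. The exception was *sult2st3* with *si:dkey-31g6.6*, at 0.930 in replicate 3. Among radial glia that were not cycling the median was 2.74. Outside radial glia the pairs gave few cells. Neurons had 70 co-positive cells where 60.4 were expected (ratio 1.16), OPCs 16 where 18.6 were expected, oligodendrocytes 15 where 23.4 were expected, microglia and macrophages 6 where 4.02 were expected, and cycling cells outside the gate 5 where 3.2 were expected. In neurons only 3 of the 45 pairs had at least 5 cells expected. These numbers are too small to show whether the members go together outside radial glia.

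The number of members per cell gives the same description from the side of the cell. At least 1 member was detected in 46.7%, 56.7%, and 51.7% of the radial glia, and in 12.9%, 18.2%, and 18.6% of the neurons. At least 2 were detected in 27.3% ± 4.34 of the radial glia, against 1.39% ± 0.290 of the neurons, 7.83% ± 3.76 of the OPCs, and 5.04% ± 3.72 of the oligodendrocytes. The largest number in a cell was 9 in radial glia and 3 in neurons, OPCs, and oligodendrocytes. OPCs had at least 1 member in 51.4% ± 8.0 of their cells and the radial glia in 51.7% ± 4.96. At least 5 members were found in 187 radial glia (3.86% ± 1.16), whose median before thinning was 3088 UMIs, against 2132.5 in radial glia with no member, and the part of depth in this was not tested. Of cycling radial glia, 0.482% ± 0.581 had at least 5 members, against 4.54% ± 1.49 of the other radial glia.

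Cells positive for a member had another member more often than cells without it, in 3 of 3 replicates for all 10 genes. *lgals1l1* was the extreme, since 97.2% ± 2.89 of its positive radial glia had another member, against 50.6% ± 4.58 of its negative ones. For *pnp6* the shares were 78.3% ± 3.84 and 47.7% ± 5.11, and for *lgals2a* 68.2% ± 6.54 and 44.2% ± 4.56. In unmixed radial glia 94.2% ± 2.27 of the *pnp6*-positive cells had another member, against 61.6% ± 5.20 of the *pnp6*-negative ones.

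The *pnp6*-positive radial glia had more UMIs of the check markers of radial glia. Summed over the 10 check genes of radial glia, they had 43.4, 60.8, and 51.5 UMIs per 1000, against 15.13, 20.7, and 18.9 in *pnp6*-negative radial glia. The 2 sets did not overlap. The check genes include *her4.1*, *id1*, *cx43*, and *efhd1*, and the last 2 are among the genes most like the number of members below. The sum is therefore not independent of the members. Neuron gate genes summed to 0.974 ± 0.169 UMIs per 1000 in the positive and 1.91 ± 0.245 in the negative cells, and cycling gate genes to 0.265 ± 0.105 and 0.852 ± 0.284. OPC gate genes, by contrast, were at 2.13 ± 0.351 in the positive cells and 1.67 ± 0.461 in the negative ones, and overlapped. The 8 microglia genes were all at 0 in *pnp6*-positive cells and also near 0 in the negative ones, at 0.0141 ± 0.00598 UMIs per 1000. The 2 gate genes of radial glia summed to 20.2 ± 2.84 UMIs per 1000 in the positive and 6.90 ± 0.833 in the negative cells. Median depth before thinning was 2448 UMIs in the positive and 2162 in the negative cells, and its part in these differences was not tested.

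Genes whose detection was most like the number of members per cell were sought by correlation over radial glia at equal depth, within each replicate. The highest was *zgc:153704* (mean coefficient 0.55, and 0.51, 0.59, and 0.57 in the 3 replicates). *ptgdsb.1* (0.54) and *ptgdsb.2* (0.47), which are named for prostaglandin D2 synthase, *ptn* (0.52), the gene of the growth factor pleiotrophin, and *selenop* (0.48), of a selenium transport protein, followed. *cx43* (0.47), the bicarbonate transporter gene *slc4a4a* (0.46), the glycolytic enzyme gene *eno1b* (0.45), *luzp2* (0.44), and *efhd1* (0.44) completed the 10. The median over 2242 genes was -0.01 and the 95th percentile 0.18. All cells of a replicate share 1 library and a fixed total of 1000 UMIs, and many cells of the gate also met gates of other types.

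With *pnp6* alone the most alike genes were *zgc:153704* (0.25), *mgll* (0.22), which encodes a monoacylglycerol lipase, *eno1b* (0.22), *luzp2* (0.21), and *ptgdsb.1* (0.20). The other members had coefficients of 0.08 (*vamp5*) to 0.20 (*cahz*) with it. The first 4 of these genes were thus above every member, and *ptgdsb.1* was level with *cahz*. Such a coefficient is limited where 2 genes differ in how often they are detected. These first 4 genes were detected in 15.3% to 22.0% of the radial glia, and the other members in 2.32% to 34.8%. The order is therefore not matched in abundance. The median over all genes was -0.0039 and the 95th percentile 0.08. In unmixed radial glia *zgc:153704* (0.53) and *ptgdsb.1* (0.51) again led the list for the number of members. There the genes least like it were *ccnd1* (-0.40), *dla* (-0.36), the gene of a Notch ligand, and *rplp2l* (-0.36), a ribosomal protein gene.

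Radial glia were last divided by genes that mark states or regions of neural stem cells, and the members were counted on both sides. Cells positive for *her4.1* had 2.51, 2.79, and 2.12 members per cell, against 0.844, 1.13, and 1.0 in *her4.1*-negative cells. The *her4.1*-positive cells were higher in every replicate, and *pnp6* was detected in 22.4% ± 4.33 of them, against 6.85% ± 0.643 of the others. The 62 cells positive for *nr2f1b* had 2.60, 4.14, and 3.25 members, against 0.904, 1.18, and 1.04 in *nr2f1b*-negative cells. Their *pnp6* share was 30.5% ± 9.08, against 7.38% ± 0.701. Cells positive for *id1*, a gene of an inhibitor of proneural factors, had 1.67 ± 0.110 members, against 0.641 ± 0.132. Cells positive for *timp4.3*, a metalloprotease inhibitor gene of astrocyte-like radial glia, had 1.98 ± 0.186, against 0.779 ± 0.192. In the split by *timp4.3*, the shares of *mfge8a* (71.3% against 22.8%) and *crtac1a* (47.1% against 12.0%) differed most. *lgals1l1* and *vamp5* were higher in *timp4.3*-positive cells in 2 of 3 replicates only. Median depth before thinning was 2709 UMIs in *her4.1*-positive and 2162 in negative cells, and 2732.5 and 2176 for *nr2f1b*. It was 2288 and 2122.5 for *id1*, and 2152 and 2194 for *timp4.3*. The part of depth was not tested. The published study reports *nr2f1b*, and *her4.1* under LY, for a quiescent cluster with high *pnp6*. More members in such cells is thus close to what chose them.

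The pro-activation genes separated the cells more in unmixed radial glia than in the whole gate. The members were chosen as genes of quiescent cells, so fewer of them in cells with pro-activation genes is close to what chose them. In the whole gate, *ascl1a*-positive cells had 1.05 ± 0.184 members and *ascl1a*-negative cells 1.09 ± 0.139, with overlapping replicates. *pnp6* alone was detected there in 5.77% ± 0.647 of the *ascl1a*-positive and 9.39% ± 0.987 of the *ascl1a*-negative cells, lower in all 3 replicates. Also in the whole gate, *ccnd1*-positive cells had 0.981 ± 0.159 members and *ccnd1*-negative cells 1.16 ± 0.162, lower in all 3 replicates, and *pnp6* was detected in 5.09% ± 0.742 and 10.1% ± 0.866 of them. In unmixed radial glia, *ascl1a*-positive cells had 0.985, 1.37, and 1.19 members, against 1.89, 2.39, and 2.36 in *ascl1a*-negative cells, and the sets were apart. For *ccnd1*, unmixed radial glia had 0.853, 1.27, and 1.15 members in positive cells, against 2.41, 2.74, and 2.39 in negative cells. *pnp6* was detected in 5.83% ± 0.949 of the *ccnd1*-positive and 18.5% ± 1.89 of the *ccnd1*-negative unmixed cells. *mfge8a* turned its direction between the sets, with 40.6% ± 6.47 of *ascl1a*-positive and 29.7% ± 1.62 of *ascl1a*-negative cells in the whole gate, and 46.9% ± 6.69 and 60.5% ± 3.11 in unmixed radial glia. *crtac1a* turned in the same way, with 23.2% ± 4.47 and 18.2% ± 1.27 in the whole gate, and 26.7% ± 3.90 and 42.2% ± 0.549 in unmixed radial glia. Both genes also turned when the cells were divided by *ccnd1*. Of the 2749 *ascl1a*-negative cells of the whole gate, 632 met no gate of another non-cycling type.

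Regional markers were rarer. The 40 unmixed radial glia with *nkx2.1*, a gene of the ventral subpallium, held no *pnp6*-positive cell, which allows a share of up to 7.5%, against 10.2% ± 0.370 of the *nkx2.1*-negative ones. In the whole gate *pnp6* was detected in 4.24% ± 1.95 of the 120 *nkx2.1*-positive and 7.76% ± 0.743 of the negative radial glia. Cells positive for *zic2a* had fewer members in all 3 replicates, 0.706 ± 0.214 in the 251 positive and 1.09 ± 0.157 in the negative radial glia. Cells positive for *gsx2*, a gene of the dorsal subpallium, had 1.55 ± 0.447, against 1.05 ± 0.150, with replicate 3 giving 1.14 against 1.07.

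**Figure D5:**
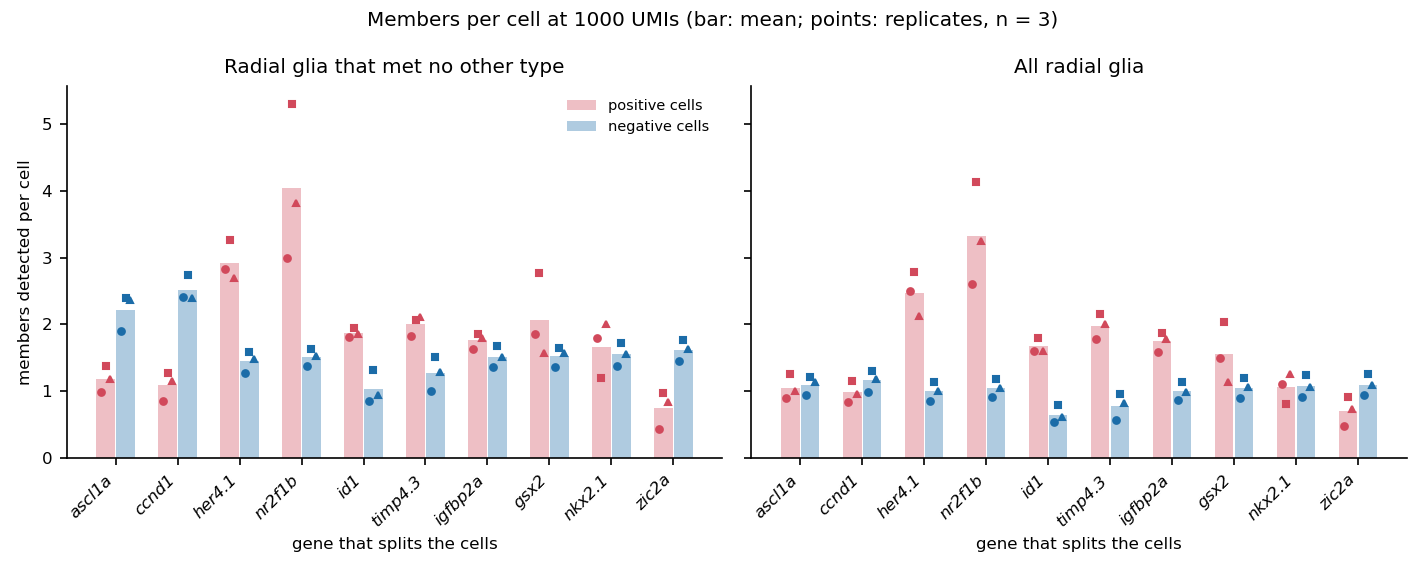
Number of the 10 members detected per cell (y axis) in radial glia that were positive (left of each pair) or negative (right) for the gene on the x axis, in unmixed radial glia and in the whole gate. Bars are means and symbols are the 3 replicates. Cells with *her4.1* or *nr2f1b* stand above their negative partners in both panels, whereas *ascl1a* and *ccnd1* separate the cells more in unmixed radial glia, at 1.18 against 2.21 and 1.09 against 2.51.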

How the data were processed

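The authors mapped droplet reads of 3 replicate libraries to GRCz11 with Cell Ranger 3.0.1 and deposited whole UMI counts per gene and cell barcode, without normalization. Barcodes were dropped when they had under 200 genes, over 10% of UMIs from mitochondrial genes, or a gene number over 3 SD away from a loess curve against depth (span 0.5, R 4.3.3), and 18817 of 19697 remained. Scrublet in scanpy 1.11.5 marked 3 cells by its automatic threshold, so 975 cells with the highest scores, 0.8% for every 1000 cells of a library, were removed instead. The libraries held 15050320, 13048298, and 12104324 UMIs. Of the symbols, 743 were listed for a second gene, and every member was matched to 1 identifier.

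Cells were gated on deposited counts, by a marker list that holds no member. For shares and co-detection, each cell was thinned without replacement to 1000 UMIs (seed 1), which left out 385 shallower radial glia, and intervals and limits for 0 counts (3 counts) cover counting error only. For tests, counts were summed per replicate and type and fitted with edgeR 4.0.16 (TMM, filterByExpr, quasi-likelihood test) with the replicate as a block. An SE is the log2 fold change over the square root of F. In the fit of cell types it rests on a spread shared by the sums of all types. It does not measure how far the difference between a pair of types varied between replicates. All sums of 1 replicate share fish and library, and their deviations from the type means correlated at 0.0321 to 0.665 in 18 pairs of sums. Alternatives were DESeq2 1.42.0, no low-count filter, no block, other gates and depths, all barcodes, and leaving out each replicate. The simulated data on which the tests were checked had known fold changes. Each library pools several fish. With the replicate as a block, shifts shared by all sums of a library are taken out of the spread. The p-values thus rest on the spread that remains between the sums of these 3 libraries, and not on the whole spread between libraries.

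The members and lists were chosen with earlier results of these data known. Named genes were the members, their families, the listed genes, and the genes most alike to the members (10) or to *pnp6* (5) among those detected in at least 5% of radial glia. No sequences are shown. Python 3.11.15 with numpy 2.4.6, scipy 1.17.1, and pandas 2.3.3 was used.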

Additional observations from a re-analysis of the deposited data

How the results depend on the processing

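Of 450 alternative values of the members' tests, 417 kept their direction and their side of the threshold, 20 lost the call, 6 gained one, and 7 turned their sign, none of them called. The log2 fold changes that turned were those against OPCs of *cahz* with all deposited barcodes (-0.24) and of *cspg5b* with DESeq2 (-0.0584), with all barcodes (-0.15), and without 1 replicate (-0.17 to 0.51), that of *vamp5* against oligodendrocytes in unmixed radial glia (0.15), and that of *vamp5* against microglia and macrophages without 1 replicate (-0.25 to 1.24). The cause was not tested.

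Without the replicate block the log2 fold changes kept their direction, and 7 calls were lost (edgeR's quasi-likelihood test). These were *cahz* against OPCs (adjusted p = 0.204) and microglia and macrophages (0.0594), *vamp5* against oligodendrocytes (0.112), *cspg5b* against cycling cells outside the gate (0.0608), and, in cycling radial glia, *lgals1l1* (-1.84, 0.0986), *lgals2a* (-1.02, 0.0811), and *vamp5* (-0.88, 0.0849). With DESeq2, *vamp5* was not called against oligodendrocytes (adjusted p = 0.0769) or in cycling radial glia (0.0543). Removing the low-count filter moved the median log2 fold change of the same genes by 0.39 against cycling cells outside the gate, 0.38 against OPCs, 0.28 against oligodendrocytes, and 0.62 against microglia and macrophages, and DESeq2 moved it by -0.10 against OPCs.

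Unmixed radial glia gave 7 members higher than OPCs, against 4 in the whole gate. Leaving out each replicate gave 3 to 4 members higher than in OPCs, 8 to 9 than in neurons, 5 to 6 than in oligodendrocytes, 5 to 6 than in microglia and macrophages, and 7 to 9 than in cycling cells outside the gate, and 10 in each case lower in cycling radial glia. In the main fits the shares over all tested genes were, in the same order, 11.1%, 30.8%, 15.9%, 22.8%, 24.3%, and 16.4%. The number of all genes called also moved with the setting, so these counts are not read as results about the members.

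Over all genes, 2938 were called against neurons, 7097 without the low-count filter, and 1829 without the block. Against OPCs 1122 were called, and 1951 in unmixed radial glia. Without the filter the numbers were 2541 for oligodendrocytes, against 1562, and 3757 for microglia and macrophages, against 1945. In cycling radial glia 3909 were called, but 2101 with DESeq2, 2301 without the block, 2044 in unmixed radial glia, and 2597 without replicate 2.

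The share of *pnp6* (7.69%) was 1.32% for at least 2 UMIs, 15.5% without thinning, 4.60% at 500 UMIs, 16.5% at 2000 UMIs, 9.98% in unmixed radial glia, 10.9% with 2 UMIs of each gate gene, 8.48% without cycling cells, and 7.28% to 8.0% with a replicate left out. The median co-detection ratio (2.71) was 5.24, 2.60, 3.42, 2.52, 2.38, and 2.28 under the first 6 of these settings, 2.61 with all deposited barcodes, and 2.71 to 2.85 with a replicate left out. In 10 further random draws of the thinning, chosen after seeing the data, the share was 7.67% to 8.62%, and the ratio was 2.99, 2.92, 3.15, 3.0, 2.99, 3.11, 3.07, 2.74, 2.76, and 3.12, all above the value reported, so that both reported values lie at the low end of what a draw gives.

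Many cells of the radial glia gate also met other gates, all fish were treated, and rare members rest on few UMIs, which limits the comparisons with small types most.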

Other observations

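In the 1073 cells that met no gate and had at least 1000 UMIs, *cahz* was detected in 1.26%, 23.3%, and 3.36% in replicates 1, 2, and 3, so that replicate 2 stood far above the others, as it did for the summed red blood cell genes in radial glia. *lgals2a* in oligodendrocytes also differed between replicates, with 3425 CPM in replicate 3, against 381 and 658 in replicates 1 and 2.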
